A study of Mus musculus with 9 samples.

Results

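BCL-2 family proteins and inhibitor of apoptosis (IAP) proteins decide whether a stimulated T cell lives or dies, and the values below follow the RNA of 10 such genes through 3 kinds of T cell culture. The genes were Bcl2, Bcl2l1, Mcl1, Bax, Bak1, Pmaip1, Birc2, Birc3, Xiap and Apaf1. They form a named list that applies no threshold to the values. A gene counted when the platform annotation gave a probe set that gene alone. In all, 9 of the 10 genes had such a probe set, with 30 probe sets among them, out of 18193 genes and 34945 probe sets with 1 gene symbol. Bax was not analysed here. Each gene is described by its brightest probe set (highest mean over the arrays), with the other probe sets beside it.

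All samples were C57BL/6 T lymphocytes cultured for 24 h, and no genetic change or further agent is named for any group. The syngeneic group was kept with dendritic cells of C57BL/6 mice and the allogeneic group with dendritic cells of BALB/c mice, at 20 T cells per dendritic cell. The anti-CD3/CD28 group instead received 0.1 µg/ml of anti-CD3e and anti-CD28 antibody, and no dendritic cells are named for it. Its differences from the other groups therefore go with the antibodies and with the dendritic cells, which cannot be told apart. Cells were incubated with CD11c beads, T cells were isolated by magnetic negative selection, and they were crosslinked with ultraviolet light (400 mJ/cm2 as the first dose). RNA bound to Argonaute (AGO), the protein that carries microRNAs, was then immunoprecipitated, amplified and hybridised to 1 array per sample. Each group had 3 arrays. The labels call them biological replicates 1, 2 and 3 and say nothing of separate mice or cultures, so p-values measure the spread between these arrays. The number of arrays limits the precision. Values are log2 signals of AGO-bound RNA, so transcript abundance and AGO binding cannot be told apart, and in such bulk samples neither can fewer cells of a type and less RNA per cell.

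In the mitochondrial pathway of cell death, BAX and BAK form pores in the outer membrane, and BCL-2, BCL-xL (from Bcl2l1) and MCL-1 hold them back. BH3-only proteins such as NOXA (from Pmaip1) bind and block these guardians, NOXA acting mainly on MCL-1. Released cytochrome c then assembles APAF1 into the apoptosome, which activates caspase-9, and XIAP inhibits caspases directly. The paralogues cIAP1 (Birc2) and cIAP2 (Birc3) are ubiquitin ligases that sit with TRAF proteins at TNF receptors and restrain non-canonical NF-kB signalling. Resting T cells depend on BCL-2 and MCL-1, and CD28 co-stimulation is known to raise BCL-xL.

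Members of this group are also known microRNA targets: miR-15a and miR-16 are reported to repress Bcl2, and miR-29b to repress Mcl1. The mature sequences (RefSeq, GRCm38.p6) are shown for that reason, 5′ to 3′ with the seed, bases 2 to 8, in capitals. No microRNA was measured on these arrays.
mmu-miR-15a-5p: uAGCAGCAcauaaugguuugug
mmu-miR-16-5p: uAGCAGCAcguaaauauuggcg
mmu-miR-29b-3p: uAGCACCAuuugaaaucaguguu
The miR-15a and miR-16 seeds are the same 7 bases, AGCAGCA, and that of miR-29b is AGCACCA.

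Birc2 and Birc3 were the members whose anti-CD3/CD28 and syngeneic arrays did not overlap. The 250 bases before 1 listed start of each (RefSeq, GRCm38.p6, both on the minus strand of chromosome 9) are therefore shown in the direction of the gene, with the cyclic AMP response element TGACGTCA in capitals. They lie at chr9:7837058-7837307 for Birc2 and chr9:7873171-7873420 for Birc3.
Birc2: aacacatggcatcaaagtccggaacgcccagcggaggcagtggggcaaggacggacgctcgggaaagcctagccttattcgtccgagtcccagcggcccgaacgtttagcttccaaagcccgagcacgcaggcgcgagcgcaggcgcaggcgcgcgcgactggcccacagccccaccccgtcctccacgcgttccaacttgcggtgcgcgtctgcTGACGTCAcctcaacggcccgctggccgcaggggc
Birc3: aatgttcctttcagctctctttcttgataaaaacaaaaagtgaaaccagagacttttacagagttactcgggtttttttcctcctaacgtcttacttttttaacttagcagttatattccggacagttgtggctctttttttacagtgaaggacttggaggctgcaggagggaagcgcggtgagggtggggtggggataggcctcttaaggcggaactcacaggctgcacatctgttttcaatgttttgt
TGACGTCA, which reads the same on both strands, lay 35 to 28 bases before this Birc2 start, and 1.79% of all 32851 windows of 300 bases around starts (250 before, 50 after) held it. It was in 1 of the 14 windows listed for members, which cover 9 of the 10 genes, and so in 1 of the 2 windows of Birc2. The NF-kB consensus, searched on both strands, was in 2 of those 14 windows, 1 of Bcl2l1 and 1 of Xiap, against 8.46% of all windows. No match says only that these letters are not in the window.

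Arrays resembled each other by replicate number. Of all probe sets, 20.9% to 51.3% held exactly equal values on any pair of arrays with the same number, against 0% between numbers, so equal signals within a number cannot be read as an absence of difference. The stimulated arrays of number 1 were nearly alike: over all genes, allogeneic minus anti-CD3/CD28 spread with an SD of only 0.103 (log2) there, against 0.493 in number 2 and 0.680 in number 3. Differences are therefore also given within each number and, where number 1 moves them, without it. Of the T cell genes, 11 of 11 measured lay above the median gene on every array, with list means of 9.65 to 11.28. So did 10 of 12 dendritic cell, 4 of 7 B cell and 2 of 11 macrophage genes. The count therefore does not tell pure T cells from a mixture. Genes of other cells were present too, those of stroma mainly in number 2. The mean of 7 stroma genes read 9.63 on syngeneic, 7.79 on allogeneic and 7.22 on anti-CD3/CD28 replicate 2. On the arrays of numbers 1 and 3 it read 3.85 to 4.35. The mean of 7 B cell genes ran from 5.86 to 8.07 over all arrays. The mean of 12 dendritic cell genes ran from 8.15 to 10.14 on syngeneic, 7.96 to 10.02 on allogeneic and 7.80 to 8.10 on anti-CD3/CD28 arrays, and that of 11 macrophage genes from 6.53 to 7.71, 5.07 to 5.88 and 4.19 to 5.79.

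No member passed the test in any comparison. The comparisons share arrays pairwise and are not independent of each other. In limma's moderated test over 18193 genes, every adjusted p of the 9 members was 1. That fit has no block and counts differences between replicate numbers as spread, so its high adjusted p-values do not show equal levels. With replicate number as a fixed block, the members' adjusted p ran from 0.709 to 0.944 for allogeneic against syngeneic, 0.677 to 0.883 for anti-CD3/CD28 against syngeneic and 0.928 to 1 for allogeneic against anti-CD3/CD28. The background was as sparse: 0% of genes were called in each comparison with or without that block, and with number as a random block 0.0055%, 0.165% and 0% (1, 30 and 0 genes, none a member). At an unadjusted p under 0.05, 27, 156 and 24 genes (0.148%, 0.857% and 0.132%), none of them members, passed without the block. With it, 825, 1236 and 205 genes passed (4.53%, 6.79% and 1.13%), among them 1 member, Birc3, in the first comparison, 2 members, Birc2 and Birc3, in the second and 0 in the third.

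**Figure D1:**
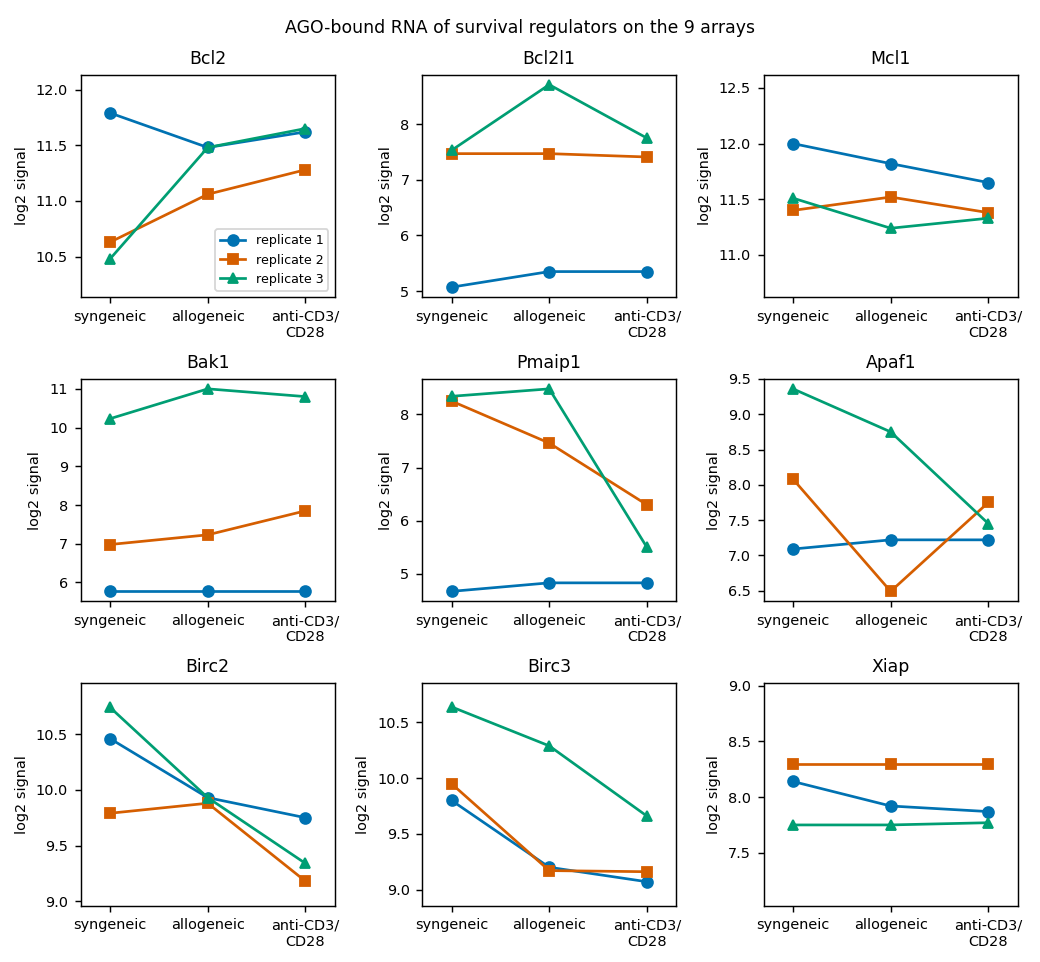
Log2 signal (y axis, one scale per gene) of the brightest probe set of 9 survival regulators in the 3 cultures (x axis); each line joins the 3 arrays of 1 replicate number. Birc2 and Birc3 lay lower on each anti-CD3/CD28 array than on every syngeneic array, while replicate numbers stand far apart for Bcl2l1, Bak1 and Pmaip1.

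Both cellular IAPs were lower in anti-CD3/CD28 than in syngeneic culture within all 3 numbers, a difference that did not pass the adjusted test. Birc2 (probe set 1418854_at, gene ID 11797) read 10.46, 9.79 and 10.74 on syngeneic replicates 1, 2 and 3. It read 9.93, 9.88 and 9.93 on the allogeneic arrays. The anti-CD3/CD28 arrays had 9.75, 9.18 and 9.34. All anti-CD3/CD28 values thus lay below all syngeneic and all allogeneic values, and the allogeneic arrays overlapped the syngeneic ones. Birc2 differed by −0.91 ± 0.43 (SE; ± 0.21 with the block) between anti-CD3/CD28 and syngeneic culture, a level 0.533 times as high, with −0.71, −0.62 and −1.40 within the numbers. The adjusted p was 1 in limma and 0.684 with the block, and over all alternatives it ran from 0.094 to 1. Between allogeneic and syngeneic culture Birc2 differed by −0.42 ± 0.43 (± 0.21 with the block), with −0.53, 0.09 and −0.82 within the numbers. Birc2 was 0.49 higher in allogeneic than in anti-CD3/CD28 culture, with a 95% interval of −0.05 to 1.03 in the blocked fit.

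Birc3 (1421392_a_at, gene ID 11796) read 9.80, 9.95 and 10.64 in syngeneic culture. The allogeneic arrays had 9.20, 9.17 and 10.29, and the anti-CD3/CD28 arrays 9.07, 9.16 and 9.66. Each stimulated array lay below the syngeneic array of its number, and only the antibody group was clear of the syngeneic range. Anti-CD3/CD28 differed from syngeneic culture by −0.83 ± 0.49 (SE; ± 0.15 with the block), a level 0.561 times as high, with −0.73, −0.79 and −0.98 within the numbers. Its adjusted p was 1 in limma, 0.677 with the block, and 0.0857 to 1 over all alternatives. Allogeneic differed from syngeneic culture by −0.57 ± 0.49 (± 0.15 with the block), with −0.60, −0.78 and −0.35 within the numbers, and its adjusted p ran from 0.572 to 1 over the alternatives. The Birc3 values of the stimulated cultures overlapped, with a blocked interval of −0.11 to 0.63 for their difference. A second, dimmer Birc3 probe set, at or under the median gene on 4 of the 9 arrays, had the other sign for antibody stimulation (0.12, 0.22 and 0.21 within the numbers), so the pattern rests on the brighter one.

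Counts set these values against all genes. Groups did not overlap, on the lower side, in 2 of 9 members (Birc2 and Birc3) for anti-CD3/CD28 against syngeneic culture, against 1.52% of genes, and in 0 on the higher side, against 0.412%. For allogeneic against syngeneic culture it was 0 of 9 in either direction, against 0.451% lower and 0.192% higher. For allogeneic against anti-CD3/CD28 it was 0 lower, against 0.055%, and 1 of 9 (Birc2) higher, against 0.269%. Members lower in all 3 numbers were 1 (Birc3) in the first comparison, 3 (Birc2, Birc3 and Mcl1) in the second and 1 (Bcl2) in the third, against 7.96%, 9.15% and 2.58% of genes. Members higher in all 3 numbers were 0, 0 and 2 (Birc2 and Birc3), against 7.29%, 7.8% and 4.39%. Birc3 counted there with 0.13, 0.01 and 0.63 within the numbers, and its other probe set had a mean of −0.45. The median member differed by −0.11, −0.18 and 0.07, and the median gene by 0.03, 0.00 and 0.04.

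Xiap, the direct caspase inhibitor (1426636_a_at, gene ID 11798), differed by no more than 0.27 (log2) within any number. It read 8.14, 8.30 and 7.75 in syngeneic, 7.92, 8.30 and 7.75 in allogeneic and 7.87, 8.30 and 7.77 in anti-CD3/CD28 culture. The groups overlapped fully, and in number 2 all 3 arrays held exactly the same value. The blocked 95% intervals were −0.36 to 0.21 for allogeneic and −0.37 to 0.20 for anti-CD3/CD28 against syngeneic culture. Its 7 probe sets differed in sign: their mean differences ran from −0.32 to 0.75 for allogeneic and from −0.55 to 0.26 for anti-CD3/CD28 against syngeneic culture, with 4 lower and 3 higher in each. The dimmer probe set 1450231_a_at, under the median gene on 6 arrays, was higher in all 3 allogeneic arrays than in their syngeneic partners, by 0.92, 1.03 and 0.32.

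**Figure D2:**
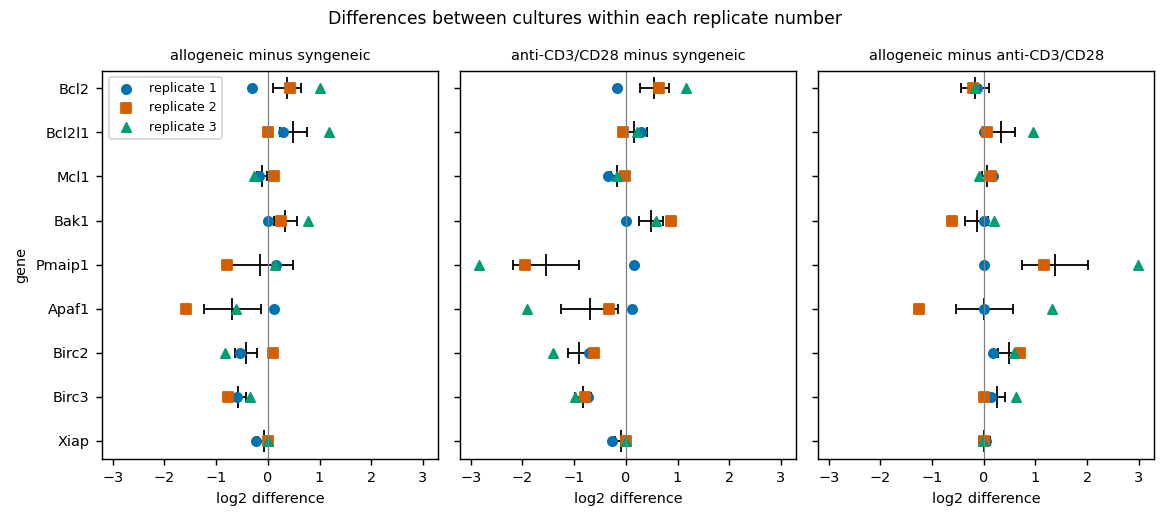
Log2 differences (x axis) between cultures within each replicate number (coloured points) for 9 survival regulators (y axis); the black tick is the mean over 3 numbers and the bar ± 1 SE of the blocked fit. For Birc3 all points against syngeneic culture lie left of 0, and the Pmaip1 points of anti-CD3/CD28 against syngeneic culture spread from 0.16 to −2.84.

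Bcl2, the guardian of resting T cells, was by its brightest probe set higher in the stimulated cultures of numbers 2 and 3 and lower in number 1. Its brightest probe set (1422938_at, gene ID 12043) read 11.79, 10.63 and 10.48 in syngeneic culture. In allogeneic culture it read 11.48, 11.06 and 11.48. The anti-CD3/CD28 arrays had 11.62, 11.28 and 11.65. Syngeneic replicate 1 was the highest of the 9 arrays, so the groups overlapped, and without it both stimulated groups would lie above the syngeneic one. The difference from syngeneic culture was 0.37 ± 0.38 (SE; ± 0.28 with the block) for allogeneic arrays, with −0.31, 0.43 and 1.00 within the numbers. For anti-CD3/CD28 it was 0.55 ± 0.38 (± 0.28 with the block), with −0.17, 0.65 and 1.16. Without the arrays numbered 1, these differences were 0.72 and 0.91, with adjusted p = 0.783 and 0.82 in the blocked limma fit. All 5 Bcl2 probe sets were higher on average in anti-CD3/CD28 than in syngeneic culture, by 0.28 to 1.39, and 4 of 5 in allogeneic culture, where the range was −0.01 to 0.83. In number 1 no probe set but the brightest was lower in a stimulated culture. The next brightest (1457687_at) differed there by 0.03 for allogeneic and 0.07 for anti-CD3/CD28.

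Bcl2l1, which encodes BCL-xL, differed more by replicate number than by culture, and its probe sets gave differences of unequal size. The brightest one (1420888_at, gene ID 12048) read 5.07, 7.47 and 7.53 in syngeneic, 5.35, 7.47 and 8.71 in allogeneic and 5.35, 7.41 and 7.75 in anti-CD3/CD28 culture. Number 1 lay more than 2 (log2) below the other numbers, and allogeneic replicate 3 was the highest array. The differences from syngeneic culture were 0.49 ± 0.99 (SE; ± 0.26 with the block) and 0.15 ± 0.99 (± 0.26). The probe set 1420887_a_at, nearly as bright on average (6.69 against 6.90), read 4.59, 5.46 and 7.80 in syngeneic, 5.77, 5.97 and 9.62 in allogeneic and 5.61, 6.80 and 8.63 in anti-CD3/CD28 culture. Every stimulated array lay above its syngeneic partner there, by 1.18, 0.51 and 1.82 for allogeneic and by 1.03, 1.34 and 0.83 for anti-CD3/CD28. With each of 34945 probe sets tested singly in the blocked limma fit, which was added with the data in view, these means of 1.17 ± 0.34 and 1.07 ± 0.34 (SE) had unadjusted p = 0.0177 and 0.025 and adjusted p = 0.747 and 0.736. This probe set was singled out after its values were seen. It lay at or under the median gene on 3 arrays, and the Bcl2l1 probe set 1426050_at was under it on all 9, with exactly equal values in each number.

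Mcl1, the short-lived guardian that NOXA counters, had high and even signals. Its brightest probe set (1437527_x_at, gene ID 17210) read 11.996, 11.397 and 11.511 in syngeneic, 11.817, 11.515 and 11.238 in allogeneic and 11.651, 11.383 and 11.327 in anti-CD3/CD28 culture. The anti-CD3/CD28 arrays lay below their syngeneic partners by 0.35, 0.01 and 0.18 (log2), within an overlapping range. The blocked 95% intervals were −0.36 to 0.14 for allogeneic and −0.43 to 0.07 for anti-CD3/CD28 against syngeneic culture. All 6 Mcl1 probe sets had means below syngeneic culture after antibody stimulation (−0.28 to −0.02). In allogeneic culture 4 were lower and 2 higher (−0.11 to 0.16).

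**Figure D3:**
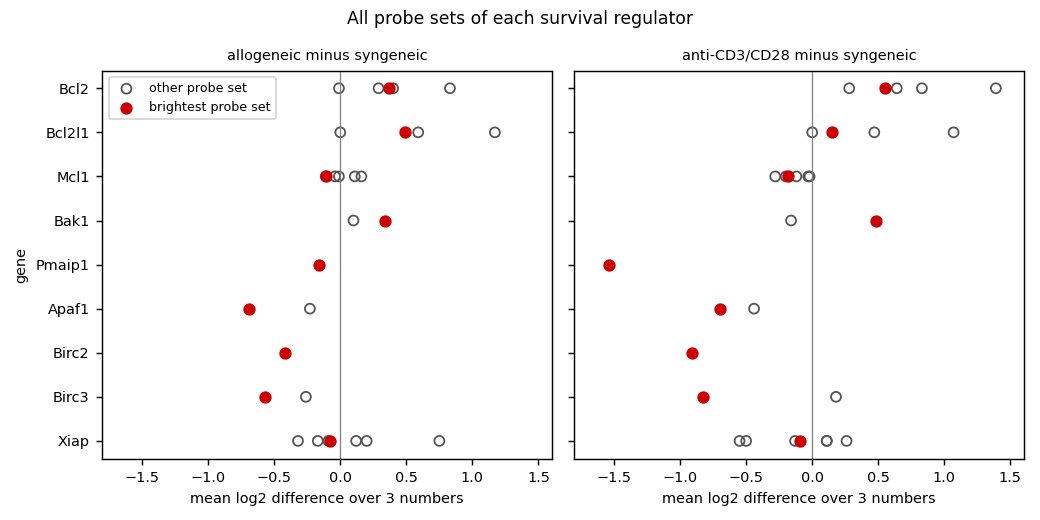
Mean log2 difference over the 3 replicate numbers (x axis) for all 30 probe sets of 9 survival regulators (y axis); filled red points are the brightest probe set of each gene, open points the others. All 5 Bcl2 probe sets lie right of 0 for anti-CD3/CD28 against syngeneic culture, and the Xiap probe sets lie on both sides in each panel.

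Among genes that promote death, Pmaip1 differed most between cultures of 1 number, by a mean absolute difference of 1.13 (log2). Its single probe set (1418203_at, gene ID 58801) read 4.67, 8.25 and 8.34 in syngeneic, 4.83, 7.46 and 8.48 in allogeneic and 4.83, 6.30 and 5.50 in anti-CD3/CD28 culture. In numbers 2 and 3 the antibody cultures were the lowest, and in number 1 all values were low. On 4 arrays Pmaip1 was no brighter than the median gene, which makes its differences inexact. Anti-CD3/CD28 differed from syngeneic culture by −1.54 ± 1.09 (SE; ± 0.64 with the block), with 0.16, −1.95 and −2.84 within the numbers. Without the arrays numbered 1 that difference was −2.40, with adjusted p = 0.82 in the blocked limma fit, and over all alternatives the adjusted p ran from 0.244 to 1. Without anti-CD3/CD28 replicate 3 the blocked difference was −0.82. Allogeneic and syngeneic culture differed by −0.16 ± 1.09, with 0.16, −0.79 and 0.14 within the numbers, and this sign turned when single arrays were left out (−1.37 to 0.88). Allogeneic exceeded anti-CD3/CD28 culture by a mean of 1.38 ± 1.09 (± 0.64 with the block), with 0.00, 1.16 and 2.98 within the numbers, so number 3 carried most of it.

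Bak1, one of the pore formers, differed mainly by replicate number. Its brightest probe set (1425716_s_at, gene ID 12018) read 5.772, 6.980 and 10.227 in syngeneic, 5.772, 7.230 and 10.997 in allogeneic and 5.772, 7.850 and 10.804 in anti-CD3/CD28 culture. In number 1 the 3 arrays were exactly equal, and in numbers 2 and 3 the stimulated arrays were higher. The differences from syngeneic culture were 0.34 ± 1.5 (SE; ± 0.23 with the block) and 0.48 ± 1.5 (± 0.23). Without the arrays numbered 1 they were 0.51 and 0.72. The other Bak1 probe set had 0.10 and −0.16, so the probe sets disagreed on antibody stimulation.

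Apaf1, the scaffold of the apoptosome (1452870_at, gene ID 11783), read 7.09, 8.08 and 9.36 in syngeneic culture. The allogeneic arrays had 7.22, 6.49 and 8.75, and the anti-CD3/CD28 arrays 7.22, 7.75 and 7.45. The stimulated arrays were lower in numbers 2 and 3 and slightly higher in number 1. The differences from syngeneic culture were −0.69 ± 0.75 (SE; ± 0.55 with the block) and −0.70 ± 0.75 (± 0.55), and −1.10 and −1.12 without the arrays numbered 1. The lowest partner differed, since allogeneic replicate 2 was 1.59 below and anti-CD3/CD28 replicate 3 was 1.91 below its syngeneic array. Both Apaf1 probe sets had negative means in both comparisons (−0.69 and −0.23, then −0.70 and −0.44).

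The rest of the pathway was followed in 4 lists with 39 measured genes of 46. No list gene passed the adjusted test, with or without the block. In the blocked fit 3 of 39 had an unadjusted p under 0.05 for allogeneic against syngeneic culture, 7 for anti-CD3/CD28 against syngeneic and 1 for allogeneic against anti-CD3/CD28, beside the 4.53%, 6.79% and 1.13% of all genes given above. The median list gene differed by 0.00, −0.02 and 0.10. Traf1, which binds cIAP1 and cIAP2 alongside TRAF2, lay lower in the stimulated cultures, as did Birc3. It read 11.23, 10.69 and 11.64 in syngeneic, 10.31, 10.25 and 11.35 in allogeneic and 10.26, 9.83 and 10.94 in anti-CD3/CD28 culture. Every stimulated array was lower than its syngeneic partner, though the groups overlapped. Traf1 differed by −0.55 ± 0.45 (SE; ± 0.14 with the block) and −0.85 ± 0.45 (± 0.14), with unadjusted p = 0.00895 and 0.00124 and adjusted p = 0.709 and 0.677 in the blocked limma fit. Both Traf1 probe sets were lower in each comparison. Traf2, the main recruiter of both cIAPs, differed by −0.02 ± 0.87 (± 0.19 with the block) and −0.23 ± 0.87 (± 0.19), and is named here after its values were seen. In the same list Xaf1, an antagonist of XIAP, differed by −0.96 ± 0.81 (± 0.34) for anti-CD3/CD28 against syngeneic culture. Naip6 was under the median gene on 8 arrays.

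Of the 10 measured BCL-2 family genes outside the members, Bid, the BH3-only protein cut by caspase-8, differed by 0.73 ± 0.84 (± 0.21 with the block) for anti-CD3/CD28 against syngeneic culture, with 0.49, 1.12 and 0.58 within the numbers, and 2 of its 3 probe sets shared the sign. Bmf, another BH3-only gene, was higher in all 3 allogeneic arrays than in their syngeneic partners, by 0.57, 0.56 and 0.13. Bcl2l10 was under the median gene on all 9 arrays. Among the 9 caspase genes and their helpers, Casp9, the initiator that APAF1 activates, differed by −0.46 ± 0.66 (± 0.18) and −0.57 ± 0.66 (± 0.18) from syngeneic culture, with the sign shared by 1 of its 3 probe sets. Dffa, the inhibitor of the apoptotic nuclease, was higher in all 3 numbers in each stimulated culture, with means of 0.54 and 0.48. Aifm1, a mitochondrial flavoprotein, read 5.83 on allogeneic replicate 2 and 7.75 to 9.38 on the other 8 arrays.

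Of the 8 death receptor genes, 3 had an unadjusted p under 0.05 for anti-CD3/CD28 against syngeneic culture in the blocked limma fit, all lower, against 6.79% of all genes in either direction and 4.56% on the lower side. Cflar, which encodes the caspase-8 inhibitor FLIP, read 9.48, 10.26 and 9.47 in syngeneic, 9.42, 10.04 and 9.54 in allogeneic and 9.28, 9.28 and 9.07 in anti-CD3/CD28 culture. The antibody arrays lay below all others, by a mean of 0.53 against syngeneic culture, and 4 of 5 Cflar probe sets were lower. The death receptor Fas differed by −1.12 ± 0.88 (± 0.43 with the block), with −0.96, −0.13 and −2.26 within the numbers. Tnfsf10, the ligand TRAIL, differed by −0.48 ± 0.83 (± 0.14), and all 3 of its probe sets were lower.

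**Figure D4:**
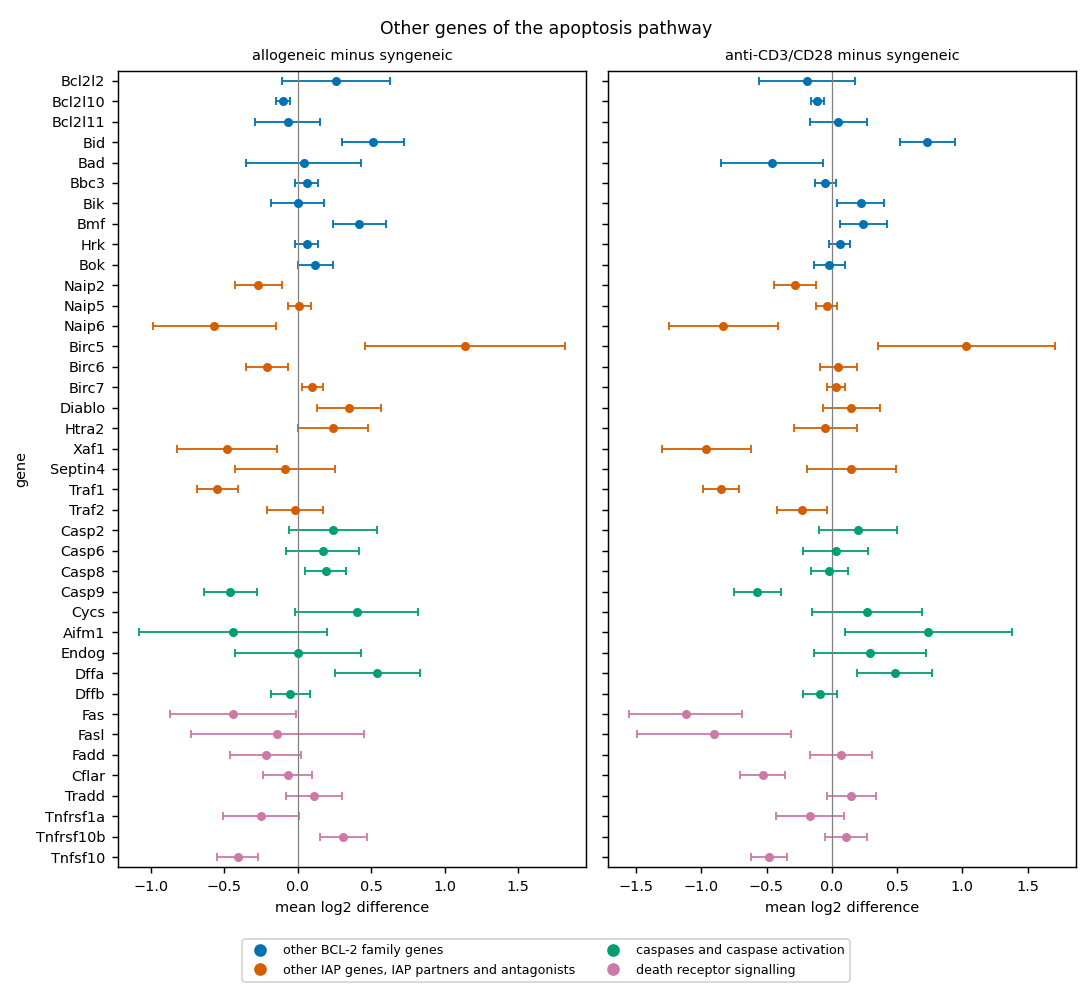
Mean log2 difference from syngeneic culture (x axis) of 39 other apoptosis genes (y axis), coloured by list, with bars of ± 1 SE of the blocked fit. Traf1 lies left of 0 in each panel with means of −0.55 and −0.85, and the 39 genes fall on both sides of 0 in each panel, with Bik at exactly 0 in the allogeneic one.

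On group means, dendritic cell markers, Birc2, Birc3, Traf1 and Pmaip1 were all lower in each stimulated culture than in syngeneic culture. In allogeneic number 2 the dendritic cell list differed by −0.86, Birc2 by 0.09, Birc3 by −0.78, Traf1 by −0.43 and Pmaip1 by −0.79. In number 1 Pmaip1 was no brighter than the median gene in any culture, so its difference of 0.16 there gives no direction. The dendritic cell list differed by −0.19 and −0.35 in number 1, with single genes of either sign. All 12 dendritic cell genes were lower on average in anti-CD3/CD28 than in syngeneic culture, by a list mean of −1.20 (−0.35, −1.21 and −2.05 within the numbers), and all 12 in allogeneic culture, by −0.39 (−0.19, −0.86 and −0.12). The 11 macrophage genes differed by a list mean of −2.06 (−1.52, −1.92 and −2.75) for anti-CD3/CD28 and −1.57 (−1.46, −1.83 and −1.43) for allogeneic against syngeneic culture. Itgax, which encodes the CD11c used for the beads, was at or under the median gene on 8 of 9 arrays. By contrast, 10 of the 12 dendritic cell genes lay above it on every array. The part of these cells in the results was not tested. T cell activation genes were higher in the stimulated cultures, by a mean of 0.91 for allogeneic and 0.85 for anti-CD3/CD28 over 8 genes. Within the numbers their list mean differed by 1.57, 0.16 and 0.99 for allogeneic and 1.56, 0.38 and 0.61 for anti-CD3/CD28. The T cell list was higher by 0.06 and 0.25.

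The genes with the most similar pattern were sought for Pmaip1, Apaf1 and Birc2, the 3 members with the largest mean differences within a number. Likeness was Pearson's r over the 9 arrays after each number's mean was taken away, among 9093 genes brighter than the median gene. The arrays of a number share their exactly equal values and their baseline, so these r describe the arrays. For Pmaip1 the nearest were Ccl17 (r = 0.995), Ctsz (0.993) and Fscn1 (0.993). Ccl17, a chemokine of dendritic cells, read 9.80, 10.93 and 11.87 in syngeneic, 10.01, 9.83 and 12.16 in allogeneic and 9.80, 7.53 and 5.86 in anti-CD3/CD28 culture. Fscn1, the actin bundler of mature dendritic cells, read 10.20, 10.48 and 11.59, then 10.44, 9.46 and 12.16, then 9.97, 7.75 and 7.72. Set against the syngeneic array of the same number, both lay furthest below it on anti-CD3/CD28 replicates 2 and 3, as did Pmaip1, whose own lowest signals were those of number 1. Both were picked for likeness to Pmaip1, so this shared shape follows from the choice. Their mean differences between anti-CD3/CD28 and syngeneic culture, −3.13 and −2.28, were larger than the −1.20 of the dendritic cell list. For Birc2 the nearest were Herc3 (0.989), Dtx4 (0.986) and Ccdc186 (0.985), and for Apaf1 Prkcd (0.995), Trappc13 (0.993) and Cep170 (0.992).

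**Figure D5:**
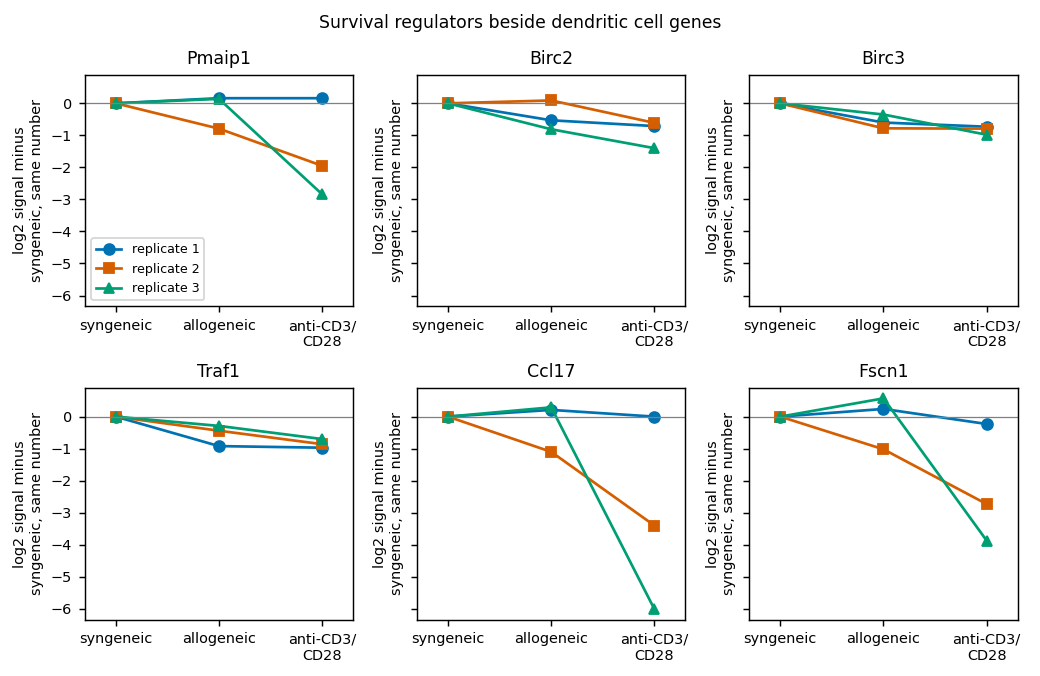
Log2 signal minus that of the syngeneic array of the same replicate number (y axis) in the 3 cultures (x axis) for Pmaip1, Birc2, Birc3 and Traf1 and for the dendritic cell genes Ccl17 and Fscn1. Each line is 1 replicate number. Ccl17 and Fscn1 were picked from the genes most like Pmaip1, so their shared shape follows from that choice. Relative to their syngeneic partner, Pmaip1, Ccl17 and Fscn1 are lowest on anti-CD3/CD28 replicates 2 and 3, whereas Birc3 and Traf1 lie below 0 in all 3 numbers.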

How the data were processed

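The deposited values are log2 probe set signals, for which the submitters' processing notes name RMA, a summary of the probes of each set over arrays. Neither its version nor which arrays were normalized together is given in the sources used here. All 9 arrays came as 1 table of 45101 probe sets, used as deposited. Control probe sets (64), 932 with several genes and 9160 with no listed gene were left out. Symbols were matched by gene ID for 34741 of 34945 probe sets. Tests used limma 3.58.1 in R 4.3.3 on the brightest probe set of each gene. The settings were 1 mean per group, all 9 arrays, an intensity trend and Benjamini-Hochberg adjustment over 18193 genes, threshold 0.05. A check on simulated data required recovery of the set changes only from the fit with the block. Those changes were larger than any member's difference in the main fit. The replicate numbers pair the arrays: deviations from group means correlated by 0.811 to 0.921 in the 9 same-number pairs, against −0.597 to −0.165 for the other 18. The fit without a block was the main one and the block an alternative. Named list genes were the 3 of each list with the smallest blocked p. Members, lists and rules were chosen with earlier results of these data known.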

Additional observations from a re-analysis of the deposited data

How the results depend on the processing

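No member and no pathway gene was called (adjusted p under 0.05, limma) under any of the alternatives: the replicate block, fixed or random, quantile normalization, centred arrays, dim genes left out (40th percentile), no intensity trend, other probe set rules, the 2 groups alone, single arrays left out with or without the block, and the arrays numbered 1 left out. Thus the replicate block changed no call. The count of all genes called went from 0 to 1 (allogeneic) and 30 (anti-CD3/CD28) against syngeneic culture with the random block, and to 1 in each of these with centred arrays. The 9 arrays and the spread between numbers limit every value, and signals near the median gene (Pmaip1, dim probe sets of Xiap and Birc3) give inexact sizes. Causes of the changes below were not tested.

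Signs of small differences turned. For Xiap they were 0.02 (allogeneic minus syngeneic) and 0.05 (anti-CD3/CD28 minus syngeneic) with quantile normalization, 0.06 (allogeneic minus syngeneic) with the mean of probe sets, 0.03 (anti-CD3/CD28 minus syngeneic) with centred arrays, 0.01 (anti-CD3/CD28 minus syngeneic; exactly 0 for allogeneic minus syngeneic) in the blocked fit without the arrays numbered 1, and for allogeneic minus anti-CD3/CD28 −0.03, −0.14 and −0.01 with quantile normalization, centred arrays and number 1 left out. Birc3 turned to 0.18 for anti-CD3/CD28 minus syngeneic with the most variable probe set, and for allogeneic minus anti-CD3/CD28 to −0.45 with that probe set and −0.09 with the mean. For allogeneic minus anti-CD3/CD28, Mcl1 turned to −0.08 with centred arrays, Bak1 to 0.06 with the mean of probe sets, and Apaf1 to −0.26 with quantile normalization and −0.13 with centred arrays.

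With single arrays left out, without the block and then with it, differences ran as follows. For allogeneic minus syngeneic, Bcl2l1 ran from −0.32 to 1.40 and 0.16 to 0.68, Mcl1 from −0.26 to 0.07 and −0.21 to −0.03, Bak1 from −1.16 to 1.62 and 0.15 to 0.55, Pmaip1 from −1.37 to 0.88 and −0.67 to 0.10 (0.09 and 0.08 without syngeneic replicates 2 and 3), and Xiap from −0.23 to 0.04 and −0.12 to 0.01. For anti-CD3/CD28 minus syngeneic, Bcl2l1 ran from −0.66 to 0.89 and −0.04 to 0.32, Bak1 from −0.85 to 1.77 and 0.27 to 0.69, and Xiap from −0.25 to 0.03 and −0.13 to 0.00. For allogeneic minus anti-CD3/CD28, Bcl2l1 ran from −0.42 to 1.25 and 0.01 to 0.53, Mcl1 from −0.08 to 0.21 and 0.00 to 0.15, Bak1 from −1.64 to 1.19 and −0.33 to 0.07, Birc3 from −0.11 to 0.45 and 0.11 to 0.37, Xiap from −0.15 to 0.17 and −0.04 to 0.04, and Apaf1 from −0.62 to 0.51 and −0.61 to 0.56 (−0.19 without allogeneic replicate 1). Birc2 and Birc3 kept their sign against syngeneic culture in all such fits (anti-CD3/CD28: −1.18 to −0.69 and −1.01 to −0.58).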
